A study of Drosophila melanogaster with 2 samples.

Results

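Lim3 is a LIM-homeodomain transcription factor that helps to specify classes of motor neurons and other neurons in the fly embryo. Factors of this family carry paired LIM domains, which bind protein partners, and a homeodomain, which in many such proteins contacts short AT-rich DNA words built on TAAT. A promoter is the DNA around a transcript start. In the compact fly genome neighbouring genes often start close together on opposite strands, so that both share one stretch of upstream DNA, whereas a single-direction promoter serves transcription one way.

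The peaks described here are the Lim3 peaks at single-direction promoters. Chromatin was precipitated with an antibody against GFP from Drosophila melanogaster embryos, taken whole at 8 to 24 h, that carried a Lim3-eGFP fusion from a transgene, as the labels say. Both of the 2 biological replicates, which form 1 group, carried the fusion, and no control library was analysed here. The whole embryo was used, so peaks cannot be tied to motor neurons or any other cell type. A second age label with an implausible value was not used.

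Of 1500 thresholded peaks from both libraries, 1445 lay on the 7 chromosome arms, and 402 of them met the rule. The summit of such a peak lay within 500 bp of a transcript start, and no pair of protein-coding genes on opposite strands started within 1000 bp of it. A further 268 promoter peaks had such a pair and are called paired promoter peaks, and 775 lay outside promoters. The authors also deposited the full ranking before any threshold, in which 139295 peaks lay on the arms, and the 1445 were 1.04% of these. The same rule picked 15484 ranked peaks, and the 402 were 2.60% of these. The 15061 of these ranked peaks that overlapped no thresholded peak served as the reference and are called ranked promoter peaks. Within the thresholded list, the rule used the annotation and the position of the summit, and no measured level. The list itself had been cut by the authors on measured values. Comparisons with ranked promoter peaks therefore also set peaks that passed that threshold against peaks that did not.

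The DNA under a few of these peaks shows what the later counts refer to. Each window below is centred on the summit, at most 200 bp long, cut where it met an annotated exon, and printed in the direction of transcription of the nearest start. The bases come from RefSeq's fly genome, release 6, which is dm6. Capitals mark TAATTA, a word of the homeodomain type, and ACAGTG, which reads CACTGT on the other strand. The first sequences belong to the 3 strongest members whose summit lay upstream of the start and outside exons, at CG14100 (chr3L:19590525-19590710, minus strand), ph-p (chrX:2137247-2137446, minus strand) and CG18549 (chr3R:12449065-12449264, plus strand). Fhos (chr3L:8766071-8766270, plus strand) and rdgC (chr3L:20247634-20247833, plus strand) are strong members with 1 of the words each. The last lies between Lim3 itself and lncRNA:CR44905 (chr2L:19108579-19108778, plus strand) and holds neither word.
CG14100: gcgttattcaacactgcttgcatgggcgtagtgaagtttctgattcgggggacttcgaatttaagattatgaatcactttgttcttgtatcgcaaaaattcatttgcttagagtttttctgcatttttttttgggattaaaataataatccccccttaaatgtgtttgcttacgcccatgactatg
ph-p: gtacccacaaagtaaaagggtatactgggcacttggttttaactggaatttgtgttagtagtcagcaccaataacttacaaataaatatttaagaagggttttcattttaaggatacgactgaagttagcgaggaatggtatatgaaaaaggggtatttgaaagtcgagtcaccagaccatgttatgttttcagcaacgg
CG18549: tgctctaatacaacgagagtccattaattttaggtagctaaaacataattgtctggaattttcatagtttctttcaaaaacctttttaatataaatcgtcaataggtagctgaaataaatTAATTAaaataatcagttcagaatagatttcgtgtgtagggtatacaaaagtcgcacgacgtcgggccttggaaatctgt
Fhos: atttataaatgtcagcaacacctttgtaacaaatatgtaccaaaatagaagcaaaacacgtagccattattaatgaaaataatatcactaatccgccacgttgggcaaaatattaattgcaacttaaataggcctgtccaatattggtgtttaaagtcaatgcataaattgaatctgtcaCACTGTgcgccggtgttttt
rdgC: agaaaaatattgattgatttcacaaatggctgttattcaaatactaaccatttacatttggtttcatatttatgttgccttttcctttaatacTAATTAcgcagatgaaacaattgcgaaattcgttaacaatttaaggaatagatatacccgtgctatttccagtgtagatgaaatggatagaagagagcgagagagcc
lncRNA:CR44905 and Lim3: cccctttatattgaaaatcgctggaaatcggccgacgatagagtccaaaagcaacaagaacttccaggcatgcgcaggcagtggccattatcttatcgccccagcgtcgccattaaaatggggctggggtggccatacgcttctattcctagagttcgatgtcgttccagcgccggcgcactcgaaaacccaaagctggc

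A second set shows an arrangement that recurred among the members. ACAGTG lay on one side of the summit and CACTGT on the other, each 50 to 149 bp from it, so that both copies read towards it. The 4 members printed have the highest signal among those whose whole span held no exon, at Rtnl1 (chr2L:4997565-4997761, minus strand), RluA-1 (chr2L:10474410-10474625, minus strand), lncRNA:CR44867 (chr2L:15911157-15911385, plus strand) and PAN3 (chr3L:3081322-3081528, plus strand). They were chosen after the arrangement had been seen. Each is printed from 10 bases before the first copy to 10 bases after the second, in the direction of transcription.
Rtnl1: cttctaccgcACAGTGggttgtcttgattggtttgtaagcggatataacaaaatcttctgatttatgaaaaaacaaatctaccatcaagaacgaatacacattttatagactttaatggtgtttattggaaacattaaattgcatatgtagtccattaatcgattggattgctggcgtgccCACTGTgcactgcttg
RluA-1: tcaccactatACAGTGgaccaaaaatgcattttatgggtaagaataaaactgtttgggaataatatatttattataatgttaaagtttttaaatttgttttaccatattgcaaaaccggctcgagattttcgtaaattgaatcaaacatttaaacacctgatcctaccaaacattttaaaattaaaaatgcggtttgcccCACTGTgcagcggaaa
lncRNA:CR44867: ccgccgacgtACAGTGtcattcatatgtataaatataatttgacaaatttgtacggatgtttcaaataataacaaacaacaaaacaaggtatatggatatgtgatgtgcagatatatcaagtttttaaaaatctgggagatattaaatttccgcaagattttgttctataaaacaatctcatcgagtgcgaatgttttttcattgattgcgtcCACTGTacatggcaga
PAN3: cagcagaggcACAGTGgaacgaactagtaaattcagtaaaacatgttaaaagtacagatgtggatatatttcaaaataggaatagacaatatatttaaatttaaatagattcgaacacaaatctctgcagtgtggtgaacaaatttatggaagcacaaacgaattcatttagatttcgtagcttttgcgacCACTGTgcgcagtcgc

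The copies lay 171, 190, 203 and 181 bp apart in these sequences, in the order printed. The middle 60 bp of the printed spans held 25% to 30.0% G or C.

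The members covered the starts of 378 genes, of which 323 were protein-coding. The nearest start was protein-coding for 343 members and non-coding for 59, of which 7 also had a protein-coding start within 500 bp. Starts of only 1 gene lay within 1000 bp of 348 members. A start on the opposite strand was present for 26, of which 13 had a non-coding one, and another protein-coding gene started on the same strand for 16. By chromosome, 76 members lay on 2L, 79 on 2R, 83 on 3L, 81 on 3R, 82 on X and 1 on Y.

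Most members had the width that the authors' pipeline gave to peaks, 330 bp for 339 of them, and the narrowest spanned 84 bp. The signal is the authors' value for each peak. Its scale is unknown here, so it serves to order peaks of the same list and is not compared between lists. It ran from 3.0 to 793 with a median of 101. Only 11 members were below 40, and 10 of these overlapped a listed peak of higher signal. In all, 22 members overlapped another listed peak and were counted separately. Signals of the 2 replicates come from each replicate's own ranked list.

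At the edge of the distance rule, the members at pAbp, a poly(A)-binding protein gene, and CG42671 lay 500 bp downstream and 497 bp upstream of a start, with signals of 95.3 and 75.9. The peaks at lncRNA:CR32660 and t-cup, both 502 bp upstream, had signals of 68.5 and 132 and were not members. At the edge of the pair rule, the farther start of the opposite pair lay 1005 and 1010 bp from the summits at CG46448 and BEAF-32, which were members with signals of 55.6 and 71.7. It lay 998 and 994 bp from those at CG8419 and CG43116, which counted as paired, with signals of 60.1 and 87.2.

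The strongest members lay upstream of genes of many functions. The 20 with the highest signal ranged from 302 to 793, and the summit was upstream of the start in 18 of them. The nearest start was protein-coding for 16 and non-coding for 4. Summits lay outside annotated genes for 9, in introns for 6, in UTR exons for 3 and in non-coding exons for 2. The lists of both replicates held 17 of the 20 and the remaining 3 were in that of replicate 2 alone.

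The first member, at CG14100 (3L, 19590489 to 19590734), had a signal of 793 in the list from both libraries, 453 in replicate 1 (rank 5) and 338 in replicate 2 (rank 6). Its summit lay 87 bp upstream of the start. The gene ph-p, which encodes a subunit of a Polycomb repressive complex, had the next one (X, 2137217 to 2137495, signal 718). That signal was 382 in replicate 1 and 341 in replicate 2. The summit lay in an intron 492 bp upstream of the nearest start, close to the limit of the rule. A separate member at ph-p (X, 2137766 to 2137915, signal 290) lay 490 bp downstream of another start of the gene, with 142 in replicate 1 and 154 in replicate 2. Both ph-p summits lay between these starts of the gene.

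The third member, at CG18549 (3R, 12449054 to 12449275, signal 520), lay 131 bp upstream, with 240 in replicate 1 and 279 in replicate 2. The gene GstE13, of the glutathione S-transferase family, had a summit 67 bp downstream of its start in a UTR exon (2R, 9122084 to 9122317, signal 487). Its replicate values were 273 and 221. At Fkbp14, a gene of the FK506-binding protein family, the summit lay 117 bp upstream (2R, 21497229 to 21497439, signal 470), with 226 and 242 in the replicates. The gene px, known for its part in wing vein patterning, had one 211 bp upstream (2R, 22514202 to 22514411, signal 419), at rank 42 in replicate 1 and rank 27 in replicate 2. All 4 peaks stood between ranks 13 and 42 in both replicates.

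Genes of regulators were among the remaining strong members. Sox14, which encodes an HMG-box transcription factor, had its summit 240 bp upstream (2R, 23978449 to 23978668, signal 406), with 212 in replicate 1 and 184 in replicate 2. The gene msi, which encodes the RNA-binding protein Musashi, had its summit 237 bp upstream (3R, 25515776 to 25515993, signal 353), with 187 and 164. Its 200 bp window held 24.5% G or C, the lowest of the 20. The other strong members were at asRNA:CR45928, CG31145, Tina-1, CG1888, lncRNA:CR44619, MFS10, lncRNA:CR31044, CG1635 and Fhos, a formin gene, with signals from 322 to 418.

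Rtnl1, lncRNA:CR44339 and Gapdh2 were the exceptions among the 20. Rtnl1 encodes a reticulon, a protein that shapes the endoplasmic reticulum, and its member (2L, 4997558 to 4997762, signal 418) was at rank 38 of replicate 2 with a signal of 203. The non-coding lncRNA:CR44339 (signal 338) was at rank 37 of replicate 2 and Gapdh2, a gene of glycolysis (signal 302), at rank 51. None of the 3 overlapped a ranked peak of replicate 1. They were therefore strong in the list from both libraries and in replicate 2. Their signal in replicate 1 is unknown, and the missing entry does not show that it was low. Sox14 (signal 406) had 184 in replicate 2 and 212 in replicate 1, and msi (signal 353) had 164 and 187. Why the ranked list of replicate 1 held no peak at these 3 members was not tested.

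Members differed in how far the replicates listed them. Replicate 1 had 881 thresholded peaks and replicate 2 had 927. The list of replicate 1 held 217 of the 402 members (54.0%, Wilson 95% interval 49.1 to 58.8), against 49.3% of all arm peaks. The list of replicate 2 held 248 (61.7%, 56.8 to 66.3), against 55.4%. Both lists held 157 members (39.1%, 34.4 to 43.9), against 32.7%, and the conservative list of the authors held 265 (65.9%), against 63.7%.

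Membership in both lists was more frequent here than among peaks outside promoters, of which 25.8% were in both. The odds ratio was 1.84 (95% interval 1.42 to 2.38, two-sided Fisher's exact test, p = 7.53e-06 adjusted over 2 comparisons). Against paired promoter peaks, of which 42.9% were in both, it was 0.853 (0.623 to 1.17, same exact test, adjusted p = 0.336). Peaks are not replicates of the experiment, so these tests cover the counting of peaks only. The classes were not matched for signal. In the stronger 50% of peaks the odds ratio against peaks outside promoters was 1.56 (1.1 to 2.21, same exact test, adjusted p = 0.0279).

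**Figure D1:**
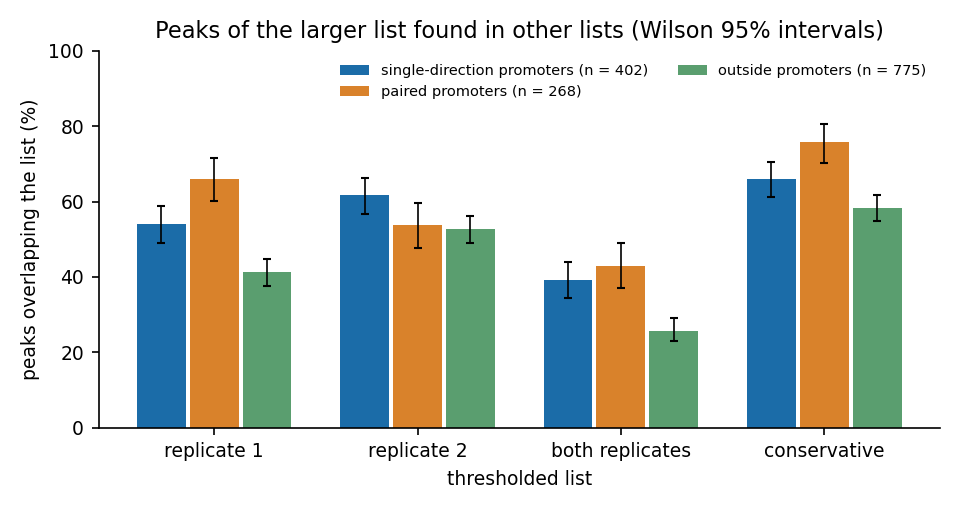
Share of thresholded peaks (%) that overlap the list of replicate 1, that of replicate 2, both of these, or the conservative list. Classes are peaks at single-direction promoters, at paired promoters and outside promoters, with Wilson 95% intervals. Single-direction promoter peaks stand at 54.0% in replicate 1 and 61.7% in replicate 2, and paired promoter peaks the other way round, at 66.0% and 53.7%.

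The 2 promoter classes were split differently by the replicates. Single-direction promoter peaks were less often in the list of replicate 1 than paired ones (54.0% against 66.0%, odds ratio 0.603, 0.439 to 0.832, two-sided Fisher's exact test, p = 0.0046 adjusted over 4 comparisons). They were more often in that of replicate 2 (61.7% against 53.7%, odds ratio 1.39, 1.01 to 1.89, same exact test, adjusted p = 0.0454). Of the members in 1 list alone, 60 were in that of replicate 1 and 91 in that of replicate 2, and of the paired ones 62 and 29. The odds ratio between these splits was 0.308 (0.181 to 0.538, two-sided Fisher's exact test, p = 2.06e-05). These tests were added after the shares had been seen. Of the 91 members in the list of replicate 2 alone, 37 had no ranked peak in replicate 1 and 54 had one in each replicate. No such count was made for paired promoter peaks. What set the replicates apart was not tested, and depth per library is unknown.

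Members in both lists had a median signal of 169, those in replicate 1 alone 83.9, those in replicate 2 alone 89.2 and the 94 in neither 67.9. The median GC content differed little among them, at 34.5%, 36.2%, 34.0% and 36.0%. The summit was upstream of the start in 83.4%, 80.0%, 79.1% and 71.3% of them, in the same order. The signal and the replicates' lists come from the same libraries, so the order of the median signals is not independent of the lists.

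The ranked lists gave a value for nearly all members in replicate 2 and for fewer in replicate 1. A ranked peak was present for 351 members in replicate 1, for 400 in replicate 2 and for 349 in each. Over these 349 peaks, which share libraries, the replicates' signals had a Spearman correlation of 0.637, and their log10 values a Pearson correlation of 0.67. Replicate 1 lacked a ranked peak at 51 members with a median signal of 95.6, of which 37 were in the list of replicate 2 and 4 in the conservative list. Replicate 2 lacked 2, with signals of at most 72.4. The median rank of the members was 744 in replicate 1 and 637.5 in replicate 2.

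**Figure D2:**
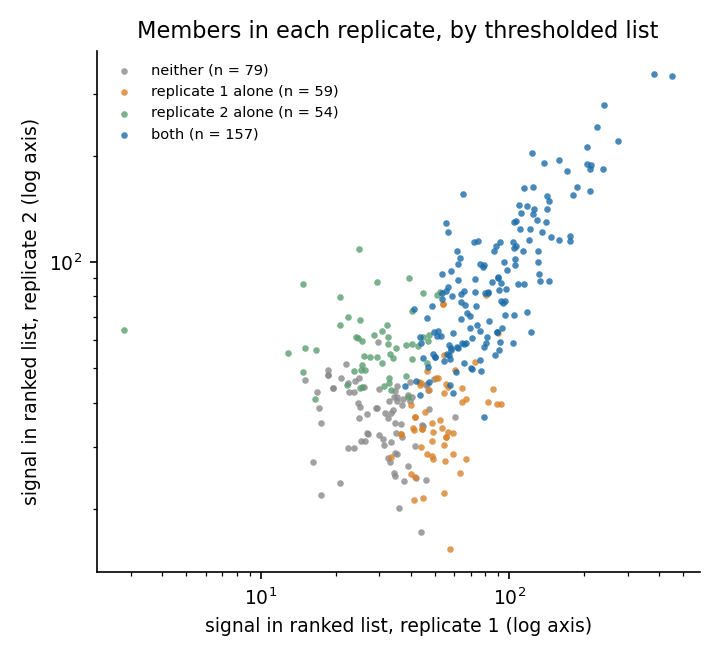
Signal of each member in the ranked list of replicate 1 (x, log axis) against that of replicate 2 (y, log axis) for the 349 members with a value in each, coloured by the thresholded lists that hold them. Members in both lists lie at the upper right, and the median signal in the list from both libraries was 169 for them against 67.9 for those in neither. Signals and lists come from the same libraries and are not independent.

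The signal of the members was compared with that of the other classes in the list from both libraries. The median was 101 here against 84.6 outside promoters. The rank sum of the signals lay farther from its expected value than in the permuted classes (permutation test of the rank sum, 100000 resamples, two-sided, adjusted p = 2e-05, the smallest these resamples can give after adjustment). Against paired promoter peaks, also at a median of 101, the difference of medians was -0.445 (same permutation test, adjusted p = 0.349).

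The position of the summit set members apart from ranked promoter peaks. The summit lay upstream of the nearest start in 318 of 402 members (79.1%, Wilson 95% interval 74.9 to 82.8), against 41.4% of ranked promoter peaks. The odds ratio was 5.35 (4.18 to 6.79, two-sided Fisher's exact test, p = 5.83e-52 adjusted over 2 comparisons). The median summit lay 171.5 bp upstream among members, with quartiles at 266 and 62.5 bp upstream, and 76 bp downstream among ranked promoter peaks. Between 51 and 300 bp upstream lay 233 members (58.0%), against 21.1% of ranked promoter peaks.

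Summits close to the start were less frequent among members. Within 100 bp of the start on either side lay 13.7% of them, against 21.8% of ranked promoter peaks (odds ratio 0.568, 0.43 to 0.762, same exact test, adjusted p = 4.8e-05). With promoters drawn within 1000 bp that difference was lost (odds ratio 0.837, exact test, adjusted p = 0.229). Paired promoter peaks had a similar upstream share, 81.7%, but 48.5% of them lay within 100 bp and their median was 90 bp upstream. That class was picked by starts on opposite strands within 1000 bp of the summit, so its distances and upstream share depend on the rule. A summit between starts that point away from each other is upstream of both. Whether position differs between the promoter classes apart from the rule was not tested.

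**Figure D3:**
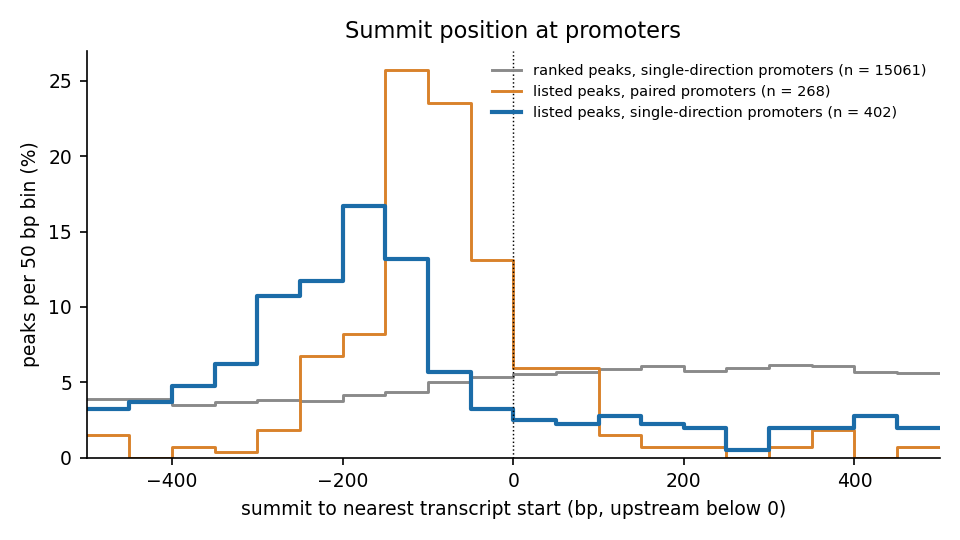
Distance from summit to the nearest transcript start (bp, upstream below 0) in bins of 50 bp, as a percentage of each class of peak. Members rise between 300 and 100 bp upstream to 16.7% in the bin from 200 to 150 bp upstream, and ranked promoter peaks spread on both sides of the start.

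The upstream share fell along the ranking by signal. All 15484 ranked peaks at single-direction promoters, thresholded or not, were ordered by signal. The summit was upstream in 86.0% of the first 100 (77.9 to 91.5), 82.0% of the next 100 (73.3 to 88.3) and 78.0% of places 201 to 400 (71.8 to 83.2). It was upstream in 53.5% of places 401 to 800 (48.6 to 58.3) and in 42.4% of places 801 to 1600 (39.0 to 45.8). Beyond place 1600 the share was between 38.2% and 42.1%. The median GC content of the same groups rose from 34.8% in the first 100 to 46.0% in places 401 to 800 and 50% in places 801 to 1600, and was 49.5%, 48.5% and 46.5% in the groups after that. Of the first 400 places, 357 overlapped a thresholded peak, so these first groups and the members are largely the same peaks.

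**Figure D4:**
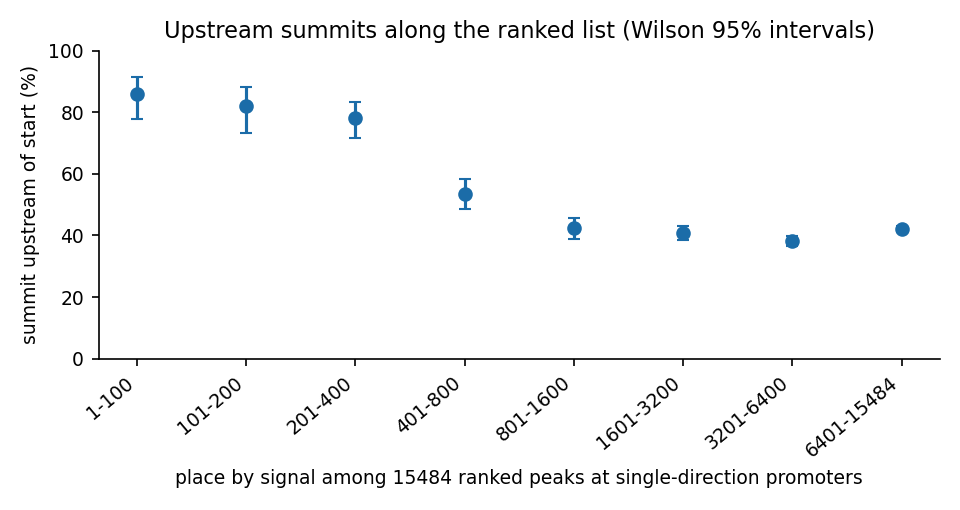
Share of ranked peaks at single-direction promoters whose summit is upstream of the start (%), by place in the order of signal, with Wilson 95% intervals. The share is 86.0% in the first 100 places, 53.5% in places 401 to 800 and about 40% from place 1601 on.

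Members at protein-coding starts and members at non-coding starts differed in position. The summit was upstream in 82.8% of the 343 with a protein-coding nearest start, at a median of 173 bp upstream. It was upstream in 34 of the 59 with a non-coding one (57.6%, 44.9 to 69.4), at a median of 106 bp upstream. The odds ratio was 3.54 (1.97 to 6.33, two-sided Fisher's exact test, p = 4.33e-05, added after the shares had been seen). The median signal at non-coding starts was 98.4, and 33.9% of those members were in both replicates' lists, against 39.9% of the protein-coding ones. The 5 strongest members at non-coding starts were at asRNA:CR45928 (signal 418), lncRNA:CR44619 (350), lncRNA:CR44339 (338), lncRNA:CR31044 (327) and lncRNA:CR44810 (278).

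Upstream of a start does not mean outside genes. Of the 318 upstream summits, 169 (53.1%) lay outside annotated genes, 125 (39.3%) in introns, 14 in UTR exons, 8 in non-coding exons and 2 in coding exons. Of the 84 at or downstream of the start, 30 lay in UTR exons, 28 in introns, 20 in non-coding exons and 5 in coding exons.

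Members lay in AT-rich DNA. The 200 bp window around the summit held a median of 35.0% G or C, against 47.5% in ranked promoter peaks (permutation test of the rank sum, 100000 resamples, two-sided, p = 1e-05, the smallest these resamples can give). Among upstream summits alone, members had 34.5% and ranked promoter peaks 45.5%. The quartiles of the members were 31.0% and 41.0%, both below the median of the ranked promoter peaks. Paired promoter peaks had 34.0% and peaks outside promoters 37.5%.

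The low GC content was centred on the summit. Around the 318 upstream summits of members, read in the direction of transcription, the mean was 41.4% in the bin from 300 to 280 bp before the summit and 30.9% in the bin from 40 to 20 bp before it. It rose to 48.1% in the bin from 120 to 140 bp after the summit, on the side of the start. Around the 6241 upstream summits of ranked promoter peaks it stayed between 41.0% and 45.4% over the same 600 bp. The difference in median GC, members minus ranked promoter peaks, was -16.0 percentage points in 100 bp windows and -5.4 in 500 bp windows.

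**Figure D5:**
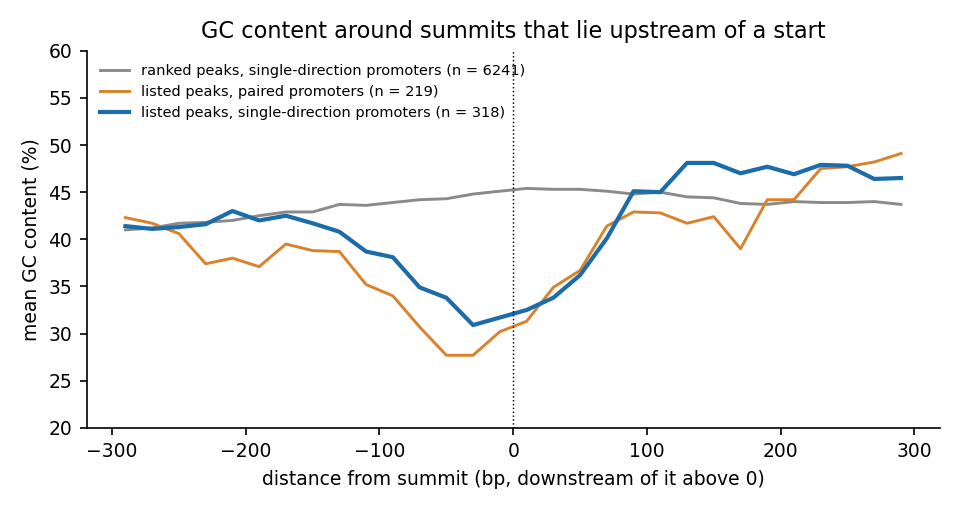
Mean GC content (%) in 20 bp bins around the summit, for summits upstream of a start, with the direction of transcription to the right. Members dip to 30.9% just before the summit and reach 48.1% beyond it, paired promoter peaks dip to 27.7%, and ranked promoter peaks stay between 41.0% and 45.4%.

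A panel of 16 short words was searched on both strands of the 200 bp window. It held TAATTA and TAATTG as homeodomain-type words and 3 rearrangements of TAATTA with the same base composition, namely ATTAAT, also TTATAA, and AATATT. Of these, ATTAAT still holds TAAT, whereas TTATAA and AATATT do not. It also held ACAGTG, which had led an earlier scan of these same peaks, and words of promoters and other factors such as TATAAA of the TATA box type and TATCGATA, which holds CGATA. The others were the words GTCACACT and GAGAG, the words CAGCTG and CAGGTAG, the words TGATAA and TCAGT, and AGACG. The word CGATA was also counted by itself, and ATTAAT and TAATTA share letters where they follow each other. A match says only that these letters are in the window.

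Against ranked promoter peaks, 10 of the 16 words passed at an adjusted p of 0.05 (two-sided Fisher's exact test, adjusted over the 16). TAATTA was in 76 members (18.9%) against 8.46% (odds ratio 2.52, 1.96 to 3.27, exact test, adjusted p = 2.55e-10). Its rearrangements passed as well, with odds ratios of 2.17 for ATTAAT, 2.89 for TTATAA and 3.17 for AATATT. The word TATAAA was in 36.3% against 15.2% (odds ratio 3.17), TATCGATA in 1.99% against 0.637%, GTCACACT in 1.49% against 0.544% and TGATAA in 16.4% against 10.9%. AGACG was less frequent, at 10.9% against 20.2% (odds ratio 0.485). ACAGTG, the last of the 10, was in 92 members (22.9%) against 8.76%, an odds ratio of 3.09. Since that word was picked from a scan of these peaks, its shares against ranked promoter peaks are a description, and no p is given for them.

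Of the 16 words, 2 passed when windows were compared within strata of 5 percentage points of GC content. ACAGTG had an odds ratio of 3.12 (Mantel-Haenszel estimate), again as a description, and GAGAG had 1.51 (1.2 to 1.91) with 26.6% of members against 24.5%. TAATTA had an odds ratio of 1.13 (0.864 to 1.47) and AGACG one of 0.84 (0.607 to 1.16), and neither passed. The estimates for ATTAAT and TGATAA moved below 1, to 0.946 (0.71 to 1.26) and 0.943 (0.714 to 1.25), and neither passed, so no difference in that direction was shown. Among upstream summits with the same strata, ACAGTG was at 2.73 and GAGAG at 1.55 (1.19 to 2.02), and no other word passed.

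The strongest members with TAATTA were at CG18549, Tina-1 and CG1888, and those with ACAGTG at px, Rtnl1 and Tina-1. For TATAAA they were at CG18549, Fkbp14 and asRNA:CR45928, and for TATCGATA at asRNA:CR45928, Alg3, a gene of protein glycosylation, and CG1827. Those with ATTAAT were at CG18549, Rtnl1 and CG1635, those with TTATAA at asRNA:CR45928, CG31145 and lncRNA:CR44339, and those with AATATT at ph-p, asRNA:CR45928 and Tina-1. Members with AGACG were led by px, CG1635 and aay. Those with GTCACACT were at Fhos, TRAM and CG30411, and those with TGATAA at px, msi and E23, an ABC transporter gene. Against paired promoter peaks, 1 word passed, ATTAAT, in 16.4% of members against 27.6% (odds ratio 0.515, 0.355 to 0.751, exact test, adjusted p = 0.0105). ACAGTG was in 16.0% of paired windows (odds ratio 1.55, 1.04 to 2.3, exact test, adjusted p = 0.124). The ATTAAT call was lost in the lists of each replicate by itself (exact test, adjusted p = 0.565 and 0.139), in the stronger 50% of peaks, in 100 bp windows and within GC strata, where 0 words passed. With 500 bp windows 11 words passed.

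ACAGTG lay to the sides of the summit rather than on it. Around the upstream summits of members, the word was centred within 50 bp of the summit in 5.97% of them, against 5.02% of upstream ranked promoter peaks. From 50 to 100 bp before the summit it was present in 9.75% against 2.32%, and from 50 to 100 bp after it in 12.9% against 2.52%. At 200 to 300 bp the shares were 5.03% before and 2.52% after the summit, against 4.04% and 4.17%. In 100 bp windows, which stop at 50 bp from the summit, the word was in 5.72% of members against 4.44%, an odds ratio of 1.31.

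The strand of the flanking copies was uneven as well. Of the 155 copies between 50 and 149 bp from a member's summit, 117 (75.5%) read ACAGTG towards the summit. On the side of lower coordinates 57 of 78 did so and on the other side 60 of 77 read CACTGT, which is the same direction seen from the other strand. Among ranked promoter peaks 745 of 1377 copies (54.1%) read towards the summit, and among paired promoter peaks 53 of 77 (68.8%). The letters around the copies in the 200 bp windows differed too, with GC directly before ACAGTG in 33.0% of the members' copies against 14.1% of 1392, and G directly after it in 50.4% against 32.5%.

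A facing pair had 1 copy on each side of the summit, each 50 to 149 bp from it and both reading towards it. Such a pair was present at 28 of 402 members (6.97%). It was present at 19 of 15061 ranked promoter peaks (0.126%) and 6 of 268 paired promoter peaks (2.24%). The copies of the 28 were 137 to 247 bp apart, with a median of 180 bp, and 20 of the pairs were 150 to 200 bp apart. The median spacing was 208 bp in the pairs of ranked promoter peaks and 192 bp in those of paired ones. The limits of 50 and 149 bp on each side bounded the spacing in advance. This arrangement was noticed in these peaks, so the counts are a description and carry no test. The 28 members lay at 27 genes, had signals from 71.8 to 418 with a median of 155, and 23 had the summit upstream. Both replicates' lists held 18 of them, that of replicate 1 alone 4, that of replicate 2 alone 5 and neither 1.

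Examples of the facing pair came from genes of unlike functions. RluA-1, a gene of the pseudouridine synthase family (2L, 10474436 to 10474612, signal 297), had 144 in replicate 1 and 149 in replicate 2. The second ph-p peak (signal 290) had its copies 240 bp apart. PAN3, which encodes a subunit of an mRNA deadenylase (3L, 3081374 to 3081500, signal 202), had 91.3 and 114, and org-1, a T-box transcription factor gene (X, 8455364 to 8455512, signal 200), had 105 and 98.3. Rtnl1 had a pair at each of 2 separate starts, with copies 171 and 174 bp apart. The second Rtnl1 member (2L, 5005003 to 5005332, signal 169) had 72.6 in replicate 1 and 82.4 in replicate 2.

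A copy of the word 50 to 149 bp from the summit, alone or in a pair, was present at 114 members (28.4%), against 8.59% of ranked promoter peaks and 23.9% of paired ones. These members had a median signal of 106 against 95.9 for the 288 without, and 43.9% against 37.2% of them were in both replicates' lists. Their median GC content was 34.8% against 35.5%. Along the members ordered by signal, the share was 31.0% of the first 100, 34.0% and 31.0% of the next groups of 100 and 17.6% of the last 102.

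Gene lists were counted at protein-coding starts. Of 7029 genes with a ranked peak at a single-direction promoter, 323 (4.60%) had a member. Among chromatin and insulator genes 3 of 17 did (17.6%), ph-p, Trl and BEAF-32. Trl encodes the GAGA factor and its member lay 140 bp downstream of the start (signal 123, with 61.7 in replicate 1 and 57.6 in replicate 2). BEAF-32, which encodes an insulator protein, had one 36 bp upstream (signal 71.7, with no value in replicate 1 and 31.7 in replicate 2).

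Of the pan-neuronal genes 2 of 11 had a member (18.2%). The first was elav, which encodes an RNA-binding protein of neurons (X, 523322 to 523651, signal 224), with the summit 261 bp upstream and 113 and 108 in the replicates. The other was scrt, a zinc finger gene of neural precursors (signal 74.4), 222 bp upstream with 36.9 and 39.3 and in neither replicate's list. Cytoplasmic ribosomal protein genes had 3 of 32 (9.38%), RpL23A (signal 111), RpS4 (91.0) and RpS29 (85.2), with summits 71, 69 and 18 bp upstream. A second RpS29 peak (3R, 9778064 to 9778393, signal 3.46), 132 bp downstream of the start, overlapped the first. Only RpL23A was in the lists of both replicates.

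Of the motor neuron transcription factor genes 1 of 13 had a member (7.69%). It was Poxm, which encodes a paired-domain factor (3R, 8334037 to 8334366, signal 107), 410 bp upstream of the start, with 60.6 in replicate 1 and 36.5 in replicate 2 and in neither replicate's list. LIM homeodomain genes and cofactors had 0 of 8 and cell cycle genes 0 of 14. The lists of mitochondrial ribosomal proteins (0 of 9), proteasome subunits (0 of 15), respiratory chain and ATP synthase subunits (0 of 24) and tRNA synthetases (0 of 7) had none either. RNA polymerase II with general transcription factors (0 of 6) and replication origin and helicase subunits (0 of 2) had none. No gene of the list of snRNP and splicing factors had a ranked peak of this kind. These counts rest on few genes, and each peak was counted only for the gene of its nearest start. The member 252 bp from the start of Lim3 was thus counted at lncRNA:CR44905, 106 bp away, and not for Lim3.

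The neighbourhood of Lim3 held several weak members. The peak between Lim3 and lncRNA:CR44905 (2L, 19108514 to 19108843, signal 63.2) lay 252 bp upstream of the start of Lim3 and 106 bp upstream of that of the non-coding gene on the other strand, which is why it is counted there. Its signal was 25.3 in replicate 1 (rank 4778) and 31.2 in replicate 2 (rank 2811). Within 20 kb of the start of Lim3, 12 of 54 ranked peaks were in the thresholded list (22.2%), and within 50 kb 15 of 105 (14.3%). Over arm 2L as a whole it was 288 of 24670 (1.17%).

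Within those 50 kb lay 6 members. Beside the one at Lim3 they comprised 3 at amd, which acts in the cuticle, with summits in coding exons 185, 327 and 385 bp downstream of a start and signals of 68.1, 73.2 and 10.5. The others were at Ddc, which encodes the decarboxylase of dopamine and serotonin synthesis, 9 bp upstream (signal 60.2), and at CG10702, 23 bp upstream (signal 53.8). The members at amd 185 and 385 bp downstream met the same ranked peak in each replicate and are not separate there. Only the Ddc member was in a replicate's list, that of replicate 1. The GC content of these 6 windows was between 47.5% and 60.5%, above the members' median of 35.0%. The labels call the flies transgenic with an insertion targeting Lim3 and do not give the extent of the inserted DNA, whose part in these peaks was not tested. Without the 6, the upstream share of the remaining 396 members was 79.5%, against 79.1% with them.

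Apart from amd, 3 genes had 3 members each, and 16 genes had 2. Ptpmeg2, a protein tyrosine phosphatase gene, had members 161, 192 and 244 bp upstream of separate starts (signals 176, 170 and 102). The last had no ranked peak in replicate 1, and the others were in both replicates' lists. Eip63F-1, an ecdysone-induced gene of a calcium-binding protein, had signals of 154, 123 and 66.4. The members at lncRNA:CR44366 had signals of 126, 80.0 and 6.77, and the strongest and the weakest of them met the same ranked peak in each replicate.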

How the data were processed

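Peak lists in dm6 coordinates were analysed, 4 thresholded and 4 ranked, per the labels. Neither aligner nor peak caller is given in the sources used here, and depth per library is unknown. Each deposited list holds the authors' signal per peak on an unstated scale, the summit as an offset in bp from the peak's start in a column of another kind, and, in ranked lists, the authors' −log10 of the irreproducible discovery rate (IDR), which was used to match each thresholded list (IDR of 0.01 or less) with its ranking. Counts of peaks carry counting error only.

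Starts came from Ensembl release 115 with transposons left out, and bases from RefSeq release 6. Peaks overlapped where they shared 1 bp. Shares were compared with Fisher's exact test, with Wald 95% intervals after 0.5 was added to each cell. Signal and GC content were compared by rank, with a permutation test of the rank sum (100000 resamples). Words within GC strata of 5 percentage points were compared with the Mantel-Haenszel test. All were two-sided and adjusted by the Benjamini-Hochberg method within each family. The tests were checked on simulated data. Python 3.11.15 with numpy 2.4.6, pandas 2.3.3, scipy 1.17.1 and statsmodels 0.14.6 was used.

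Named genes were those of the 20 members of highest signal, the edges of the rule, up to 5 members per gene list, the 5 strongest members with a non-coding nearest start, 3 members per passing word, genes with 3 or more members and Lim3. Members, words and lists were chosen with earlier results of these data known. Names outside that rule, at facing pairs of ACAGTG and near Lim3, were chosen after their values were seen. Sequences were printed only for members off chromosome arm 2R.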

Additional observations from a re-analysis of the deposited data

How the results depend on the processing

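No paired analysis was possible because the labels give 1 group. Of 78 values of the main results under an alternative, 59 kept their direction and their side of the threshold or stayed within 1.5 times the main count. The upstream share, the GC difference and both comparisons with peaks outside promoters did so in every alternative run for them. Each replicate's own lists gave 219 to 271 members, and a 200 bp promoter gave 196. The odds ratio for both replicates' lists against paired promoter peaks was 1.05 (exact test, adjusted p = 0.852) in the conservative list. Counted in the list of replicate 1 it was 0.603 and in that of replicate 2 it was 1.39, alternatives chosen after seeing the data. The difference in median signal from paired promoter peaks was 1.6 in the conservative list, 3.49 with a 200 bp promoter, -7.6 with pairs within 500 bp (permutation test, adjusted p = 0.0476) and 2.27 with the widest pair distance tried. The share within 100 bp of the start had an odds ratio of 0.837 with a 1000 bp promoter. Panel words passing against ranked promoter peaks numbered 2 within GC strata, and 2 with upstream summits only in such strata, a setting chosen after seeing the data. ACAGTG, which was picked from a scan of these peaks, was among the 2 in each case. Against paired promoter peaks, 2 passed in the conservative list, 11 in 500 bp windows, and 0 each in the stronger 50% by signal, in 100 bp windows and within GC strata. Each replicate's own lists gave 0 to 0. Within GC strata the odds ratio was 0.946 for ATTAAT and 0.943 for TGATAA. With upstream summits only in those strata it was 0.902 for ATTAAT, 0.898 for TGATAA and 1.09 for AGACG. None of these words passed in either setting. GTCACACT, in 6 members, lost its call in 7 of 9 alternatives. The causes were not tested. Depth per library is unknown, so how far it limits the lists cannot be given.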
